A study of Hydra vulgaris with 12 samples.

Results

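The RNA described here is the set of Hydra transcripts that carried capless 5-prime ends, Hyli-bound sense small RNA, or both, in animals depleted of interstitial cells by colchicine. A transcript was a member when it had at least 20 CPM (counts scaled so that each column sums to 1000000) of capless ends or of Hyli sense counts. The rule found 5505 of 38747 transcripts. They were split by the antisense small RNA bound to Hywi in the same kind of animals, into 1858 members under 1 CPM, 1127 from 1 to 10, 1259 from 10 to 100 and 1261 over 100 CPM. The question asked was which cleaved RNA is found again as Hyli-bound piRNA in epithelial animals.

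Hydra has a pair of PIWI proteins, Hywi and Hyli. Proteins of this family bind short RNAs called piRNAs that direct them to matching transcripts. In the ping-pong cycle, worked out in Drosophila and known from many animals, a PIWI protein that holds an antisense piRNA cuts a sense transcript. The capless fragment left by the cut is loaded into a partner PIWI protein and trimmed to a sense piRNA. Transposons are the best-known targets of this cycle. A capless end can also arise by other routes of RNA decay.

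All animals were Hydra vulgaris of strain AEP. The degradome library (20 animals) ligated an adapter to poly(A) RNA without removing the cap, so that capless 5-prime ends were read. The Hyli and Hywi libraries held small RNA immunoprecipitated (IP) from 225 animals each. The colchicine-treated, epithelialized animals carried the cnnos1::GFP transgene, and the untreated animals were wild type, so treatment and line changed together. Each of these libraries was 1 sample of pooled animals. The mRNA libraries came from groups of 10 whole animals taken 4 days after hatching, 3 libraries with a transgene that expresses a hywi hairpin in epithelial stem cells and 3 from siblings that lacked it. The transcript names could not be paired with gene names (0 of 38747 matched the reference gene table), so the loss of interstitial cells, the level of the targeted hywi transcript and the identity of transposons were not checked here.

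The colchicine-treated degradome held 176897 counts, so 20 CPM was 3.54 counts. Hyli sense held 6680313 counts, with 20 CPM at 133.6 counts, and Hywi antisense held 16628518, with 1 CPM at 16.6 counts. Members held 97.4% of capless counts (95% Wilson interval 97.3 to 97.5%) and 96.3% of Hyli sense counts (96.28 to 96.31%). Closest to the threshold, t11664aep was inside with 134 Hyli sense counts (20.1 CPM) and t32990aep was outside with 133.5 (just under 20.0 CPM). Both had 0 capless counts. Levels are CPM not divided by transcript length, which was not used here, so a longer transcript has more counts at the same abundance, and medians of different groups of transcripts carry this limit. Intervals cover counting error only.

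Capless ends and Hyli sense small RNA shared part of their transcripts. Of the members, 1710 passed 20 CPM in both libraries, 2041 in capless ends only and 1754 in Hyli sense only. The shared transcripts were 45.6% of the 3751 with capless ends and 49.4% of the 3464 with Hyli sense small RNA. They held most of the counts of both libraries, with 79.8% of all capless counts (79.6 to 80.0%) and 79.9% of all Hyli sense counts (79.90 to 79.97%). Those with capless ends only held 16.7% of capless counts but 1.1% of Hyli sense counts.

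Whether a transcript with capless ends also had Hyli sense small RNA went with its Hywi antisense small RNA. Under 1 CPM of Hywi antisense, 297 of 1499 transcripts with capless ends (19.8%) had at least 20 CPM of Hyli sense counts. From 1 to 10 CPM the number was 262 of 835 (31.4%). From 10 to 100 CPM it was 494 of 685 (72.1%). Over 100 CPM it was 657 of 732 (89.8%). Each class rested on 1 library of each kind, so the order is a description of these libraries with no test.

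Transcripts below the capless minimum gave the background in each class. Among them, 359 of 26964 (1.33%) had 20 CPM of Hyli sense counts in the class under 1 CPM, 292 of 4526 (6.45%) from 1 to 10, 574 of 2398 (23.9%) from 10 to 100, and 529 of 1108 (47.7%) over 100 CPM. In every class the share was higher where capless ends were present. Read from the Hyli side, 45.3%, 47.3%, 46.3% and 55.4% of transcripts with Hyli sense small RNA had capless ends, from the lowest to the highest class. Over all transcripts of the classes, capless ends were found in 1499 of 28463, 835 of 5361, 685 of 3083 and 732 of 1840. This base thus rose from class to class, and the shares lay closest to it in the highest.

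**Figure D1:**
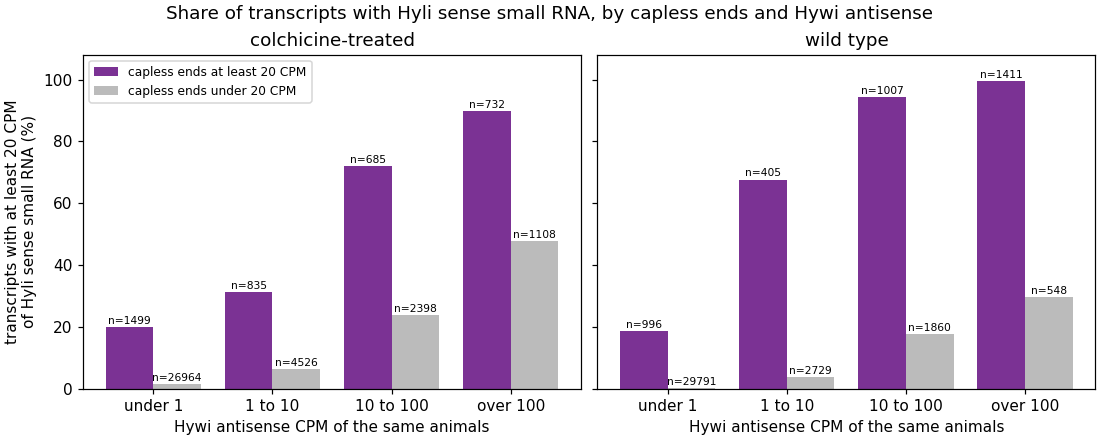
Bars give the percentage of transcripts with at least 20 CPM of Hyli sense small RNA, by Hywi antisense class. The class was set by a separate library of the same kind of animals. Purple marks transcripts with at least 20 CPM of capless ends and grey those below. Colchicine-treated animals are on the left and wild-type animals on the right. n is the number of transcripts behind a bar. In colchicine-treated animals the purple bars go from 19.8% to 89.8% and the grey ones from 1.33% to 47.7%.

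The share also went with the number of capless ends inside each class. Under 1 CPM of Hywi antisense it was 13.2% of 942 transcripts at 20 to 50 CPM of capless ends, 26.8% of 481 at 50 to 200 CPM, and 57.9% of 76 at 200 CPM or more. Over 100 CPM it was 84.3% of 197, 88.3% of 290 and 95.9% of 245. Few capless ends at a high antisense level (84.3%) thus went with a higher share than many capless ends at a low one (57.9%). The median Hyli sense level rose with capless ends inside each class, from 2.96 through 7.63 to 41.9 CPM in the lowest and from 130.1 through 216.5 to 441.7 CPM in the highest.

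**Figure D2:**
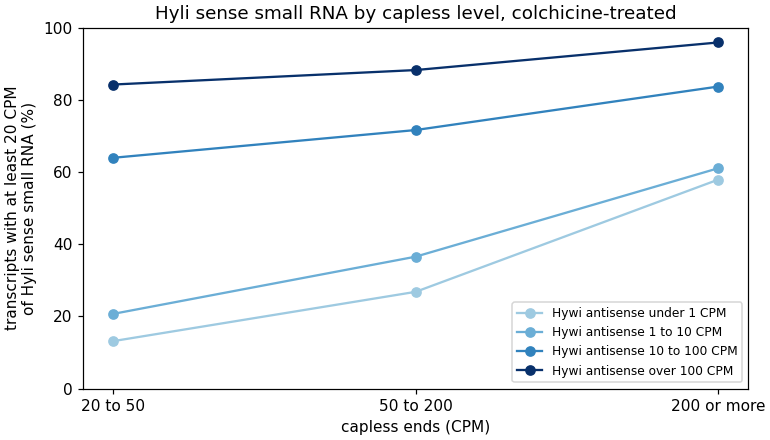
Each line is a Hywi antisense class in colchicine-treated animals, the horizontal axis gives 3 ranges of capless ends in CPM, and the vertical axis the percentage of transcripts with at least 20 CPM of Hyli sense small RNA. All 4 lines rise to the right, the lowest from 13.2% to 57.9% and the highest from 84.3% to 95.9%.

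The balance of the 2 kinds of RNA changed across the classes. On the log2 scale with a pseudocount of 1 CPM, which understates ratios of low transcripts, the median ratio of capless ends to Hyli sense counts was 2.48 under 1 CPM of Hywi antisense (quartiles -0.08 and 4.18). It was 1.59 from 1 to 10 CPM (-1.81 and 3.38), -1.77 from 10 to 100 CPM (-4.46 and 1.16) and -2.57 over 100 CPM (-4.41 and -0.36). Past a 4-fold difference toward capless ends were 1043 members (56.1%) of the lowest class and 117 (9.28%) of the highest, against 34.3% of all members. Past 4-fold toward Hyli sense were 318 (17.1%) and 728 (57.7%), against 34.8% of all members. Membership used both values, so these shares describe the members and support nothing further.

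The correlation of the 2 levels depended on which transcripts were taken. The Spearman correlation was -0.01 over the 5505 members, and -0.17, -0.20, 0.11 and 0.45 from the lowest to the highest class. The 0.11 turned to -0.05 at a minimum of 50 CPM, -0.22 at 100 CPM, -0.08 with classes set by wild-type Hywi antisense and close to 0 with totals of both strands. The rule takes a transcript that is high in either library, and how this moved the correlation was not tested. Over the 1710 shared members the correlation was 0.28, and by class 0.27, 0.24, 0.18 and 0.27. The value for shared members was above that for all members in each class but the highest, where it was below. Restricted to transcripts with at least 50 capless counts in both degradomes, the correlation was 0.01 for 176 transcripts in the highest class, so the 0.45 over all members there was not seen in the transcripts with most capless ends. For 26 such transcripts in the lowest class it was 0.61. Points of 1 class share the same 2 libraries, and transcripts are not replicates.

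**Figure D3:**
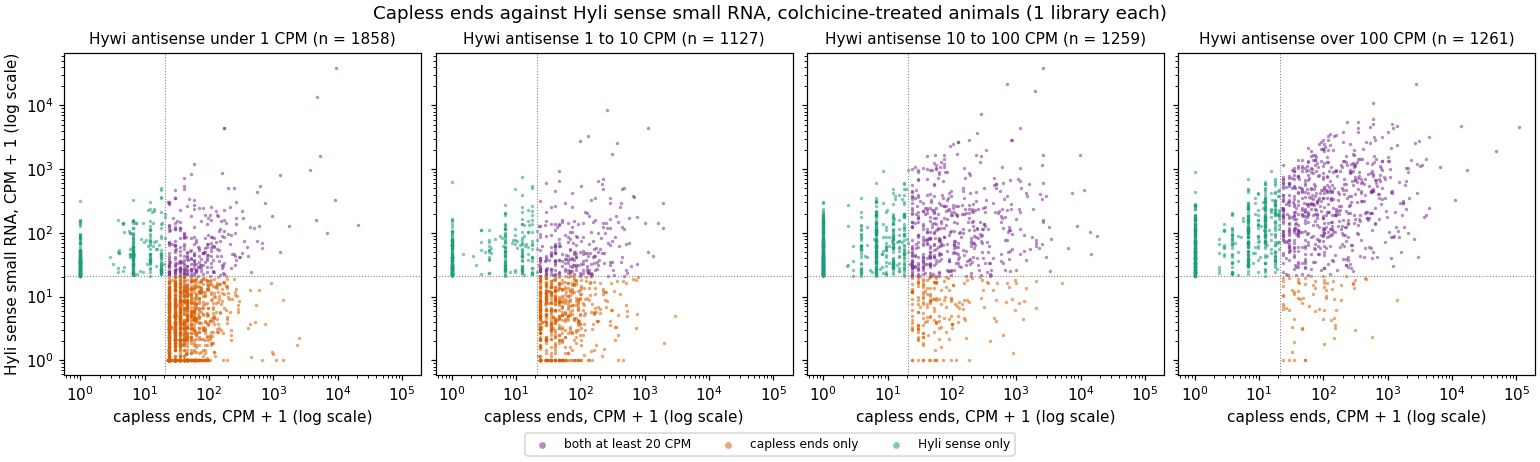
Each point is a member in colchicine-treated animals, with capless ends on the horizontal and Hyli sense small RNA on the vertical axis, both as CPM + 1 on log scales, in 1 panel per Hywi antisense class. Dotted lines mark the 20 CPM minimum. Shared members (purple) are 297, 262, 494 and 657 from left to right, and members with capless ends only (orange) fall from 1202 to 75.

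The shared members of the lowest and highest classes differed in their mRNA. Under 1 CPM of Hywi antisense, the 297 shared members had a median mRNA level of 260.0, 247.3 and 239.8 CPM in the 3 wild-type sibling libraries, and 192 of them (64.6%) reached a mean of 100 CPM. The 657 shared members over 100 CPM had medians of 3.19, 2.61 and 2.21 CPM, and 5 of them (0.761%) reached 100 CPM. The medians of the 2 groups lay far apart in every library. Those 5, named after their values were seen, were t11895aep, t14943aep, t21269aep, t26650aep and t27024aep. The siblings were not treated with colchicine and were not labelled as depleted of any cells, so the level is that of whole young animals.

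Within the lowest class the shared members had the highest median mRNA level. The 1202 members with capless ends only had a median of 44.1 CPM (quartiles 15.3 and 123.1), and the 359 with Hyli sense only 48.0 CPM (7.75 and 111.7), against 256.7 CPM (50.2 and 766.1) for the shared ones. Of transcripts with capless ends and at least 100 CPM of mRNA, 192 of 540 (35.6%) had Hyli sense small RNA, of those from 10 to 100 CPM 62 of 670 (9.25%), from 1 to 10 CPM 21 of 145 (14.5%) and under 1 CPM 22 of 144 (15.3%). The share was thus highest at the top mRNA level but did not rise steadily with mRNA. In the highest class the share was 77.2% of 184 transcripts under 1 CPM of mRNA, 93.4% of 471 from 1 to 10 CPM and 97.2% of 72 from 10 to 100 CPM. The share at under 1 CPM of mRNA in the highest class was above that at 100 CPM or more in the lowest.

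**Figure D4:**
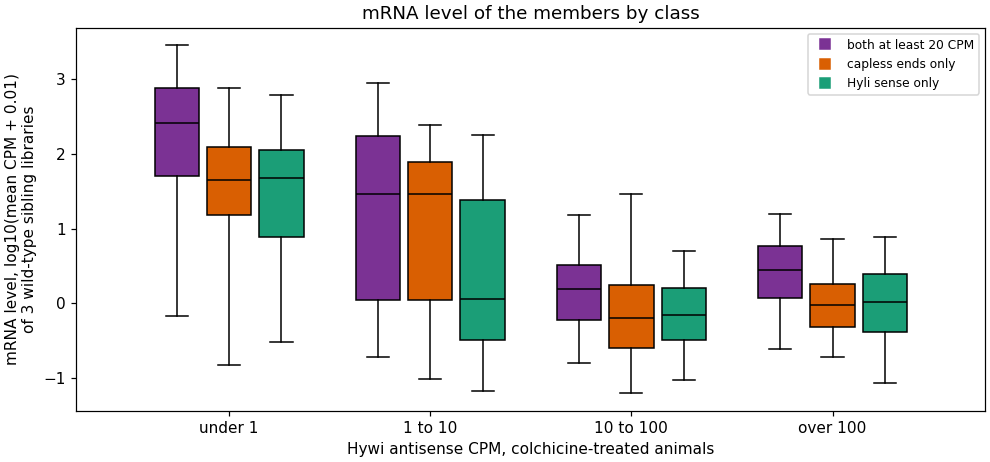
Boxes give the mRNA level of the members (log10 of the mean CPM of 3 wild-type sibling libraries, plus 0.01) by Hywi antisense class and by the library in which a member passed 20 CPM. A box spans the quartiles with the median as a line, and whiskers reach the 5th and 95th percentiles. The median of the shared members (purple) is 256.7 CPM in the lowest class and 2.75 CPM in the highest.

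Sense small RNA in the Hywi IP was unequal across the same groups. At least 20 CPM of it was found in 195 of 297 shared members (65.7%) of the lowest class, against 342 of 1202 (28.5%) with capless ends only. Of the members of the lowest class with Hyli sense only, 125 of 359 (34.8%) had it. In the highest class it was found in 190 of 657 shared members (28.9%). There it was found in 8 of 75 with capless ends only (10.7%) and 60 of 529 with Hyli sense only (11.3%). Over all members it was 1539 of 5505 (27.96%). The shared members of the lowest class were thus above the share of all members, and those of the highest class were close to it. A high share was not particular to the lowest class. From 1 to 10 CPM it was 136 of 262 shared members (51.9%) and 252 of 573 with capless ends only (44.0%). With Hyli sense only it was 55 of 292 there (18.8%), and from 10 to 100 CPM 81 of 494 shared members (16.4%). The Spearman correlation of Hyli sense with Hywi sense counts was 0.41 over members of the lowest class and 0.45 over those of the highest. For Hyli sense with mRNA it was 0.33 and 0.37, and for Hyli sense with Hywi antisense 0.04 and 0.31.

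The strand of Hyli-bound RNA also differed. Of all Hyli counts on shared members, 98.6% were sense in the class under 1 CPM, 87.3% from 1 to 10, 79.0% from 10 to 100 and 76.6% over 100 CPM. Shared members had to have Hyli sense counts and the classes were set by antisense small RNA, so the rule fixed this order in part. On the 75 members of the highest class with capless ends only, 2.74% were sense, and these transcripts were required to have few sense counts. Sense and antisense values were divided among transcripts differently, since 17.6% of Hyli sense values above 0 and 84.7% of antisense values were not whole numbers. Their comparison carries that limit. Of the Hywi antisense values above 0 in treated animals, which set the classes, 94.1% were not whole numbers. The classes thus rest mostly on counts divided among transcripts.

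The transcripts highest in both libraries differed between the lowest and the highest class. They are extremes by rank: the median Hywi sense level of all shared members of the lowest class was 41.5 CPM. In the lowest class the highest in both libraries was t30823aep, with 1672 capless and 262867 Hyli sense counts in treated animals. It had 0.561 CPM of Hywi antisense but 73821 CPM of Hywi sense counts. Its mRNA was abundant and uneven, with 801.9, 1675 and 437.6 CPM in wild-type siblings and 436.9, 3963 and 630.0 CPM in the knockdown, and the groups overlapped. The next, t12446aep, had 848.2 capless and 90813 Hyli sense counts, with 49154 CPM of Hywi sense and 0.256 CPM of Hywi antisense. Its mRNA was 274.8, 557.6 and 148.1 CPM in wild-type siblings, which followed the same order over the libraries. Values of both transcripts were fractions, so reads were divided with other transcripts and their levels are uncertain.

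In the highest class t142aep held 2459 capless and 31425.5 Hyli sense counts, with 617.1 CPM of Hywi antisense and 16.9 CPM of Hywi sense. Its mRNA was 5.61, 3.49 and 3.17 CPM in wild-type siblings. The transcript t15838aep held 19555 capless counts, the most of any transcript, and 30461 Hyli sense counts, with 132.8 CPM of Hywi antisense. Its mRNA was 0.787, 0.580 and 0.479 CPM. Both thus had many capless ends and much Hyli sense small RNA at a low mRNA level, with the strands of Hywi-bound RNA opposite to those of t30823aep. The values of t142aep for Hyli and of t15838aep for both libraries were fractions.

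The classes between were mixed. From 1 to 10 CPM, t23853aep had 85 capless and 3338 Hyli sense counts, 20264 CPM of Hywi sense and mRNA of 782.5, 717.9 and 634.4 CPM in wild-type siblings. In the same class t6036aep had 201 capless and 29706 Hyli sense counts but 13.6 CPM of Hywi sense, and its mRNA of 46.1, 57.4 and 56.3 CPM lay between the levels of the other examples. From 10 to 100 CPM, t15818aep had 467.8 capless and 261108 Hyli sense counts with 1547 CPM of Hywi sense, and its mRNA was 788.5, 483.1 and 516.6 CPM. Its neighbour in rank, t27038aep, had 341 capless and 113680 Hyli sense counts with 69.5 CPM of Hywi sense, and mRNA of 7.64, 5.16 and 4.85 CPM.

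Capless ends with Hyli sense small RNA below 20 CPM occurred in every class. In the lowest, t13632aep had 249 capless and 0 Hyli sense counts, at least 3134-fold more capless ends in CPM against a floor of 3 counts. Beside it t2633aep had 405 capless and 5 Hyli sense counts. From 1 to 10 CPM, t37893aep had 354 and 6, and t13551aep 515 and 27. From 10 to 100 CPM, t27335aep had 157 capless and 2 Hyli sense counts, and t5027aep had 921 and 102. In the highest class t32044aep had 102 capless and 9 Hyli sense counts in spite of 2942 CPM of Hywi antisense, and t23074aep had 245 and 53 with 331.5 CPM. Hyli antisense counts of these last 2 were 547.5 and 404.0 CPM, far above their Hyli sense levels of 1.35 and 7.93 CPM. The 8 transcripts had whole-number values in both libraries. Their mRNA ranged widely, from at most 0.0363 CPM in the siblings for t2633aep to 41.1, 36.2 and 25.8 CPM for t13551aep.

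Hyli sense small RNA with 0 capless counts was also found in every class. In the highest class t2997aep had 6102 Hyli sense and 0 capless counts, at least 53.9-fold more in CPM against the floor, with 1155 CPM of Hywi antisense. Its class mate t2292aep had 2934 and 0, at least 25.9-fold. From 10 to 100 CPM, t15213aep had 2030 and 0 (at least 17.9-fold) and t29737aep 1994 and 0 (at least 17.6-fold). From 1 to 10 CPM, t2060aep had 4138 and 0 (at least 36.5-fold) and t29382aep 1101 and 0 (at least 9.72-fold). In the lowest class t8943aep had 2088 and 0 (at least 18.4-fold) and t8950aep 1048 and 0 (at least 9.25-fold). A count of 0 allowed up to 17.0 CPM of capless ends in this library, so absence was not shown. The mRNA of t8943aep was 20.1, 21.8 and 19.3 CPM in wild-type siblings, while that of t2292aep was 0.273, 0.690 and 0.619 CPM.

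Few transcripts with many Hyli sense counts had no capless counts. Among 561 transcripts with at least 2000 Hyli sense counts in treated animals, 5 had 0 capless counts (t15213aep, t2060aep, t2292aep, t2997aep and t8943aep), and the 5th percentile was 0.562 capless counts per 1000 Hyli sense counts (median 3.39, 95th percentile 69.0). Taking that percentile off each transcript's capless counts left 292, 259, 469 and 612 shared transcripts, or 19.4%, 30.98%, 71.1% and 89.0% of those with capless ends, in the order of the classes. The shares by class were nearly as large without it. The percentile lay far below the median ratio, so little was taken from most of these transcripts. No conclusion is drawn from the small change. Whether Hyli-bound small RNA contributed to the capless counts of treated animals was not tested. The subtraction was added after seeing the data.

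The same tabulation of wild-type animals, with their own Hywi antisense classes, gave shares of 18.6%, 67.7%, 94.4% and 99.6% of transcripts with capless ends. These are higher than in treated animals in the upper 3 classes. Among wild-type transcripts below the capless minimum the shares were 0.255%, 3.63%, 17.5% and 29.7%. Over all transcripts of the highest class, 1568 of 1959 had Hyli sense small RNA in wild type and 1186 of 1840 in treated animals. In the lowest class these were 261 of 30787 and 656 of 28463. The base thus differed between the 2 kinds of animal as well. The Spearman correlation over the wild-type members was 0.20, 0.44, 0.82 and 0.96 by class. In the 176 transcripts of the highest class with at least 50 capless counts in both degradomes, the wild-type correlation was 0.95 against 0.01 in treated animals, while in the 26 of the lowest class it was 0.28 against 0.61. The wild-type degradome held 765341 counts, and 20 CPM was 15.3 counts there. Among 1171 wild-type transcripts with at least 5000 Hyli sense counts, none had 0 capless counts. The lowest had 5.22 capless counts per 1000 Hyli sense counts, and the 5th and 95th percentiles were 9.50 and 21.9, a 2.30-fold range against 122.7-fold in treated animals. With the 5th percentile taken off, the wild-type correlation was 0.75 in the highest class and 0.35 from 10 to 100 CPM. The wild-type shares fell to 11.3%, 53.7%, 89.0% and 99.1%. The reduced counts were scaled to CPM again, so the number of transcripts with capless ends changed too. It went from 996 to 1272 in the lowest class and from 1411 to 1144 in the highest. Whether Hyli-bound small RNA itself contributed to the capless counts of the wild-type library was not tested, and the wild-type shares and correlations carry that limit. In bulk samples, fewer cells of a type and less RNA per cell cannot be told apart.

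How far the members of treated animals were found in wild-type animals depended on the class. Of the 657 shared members over 100 CPM, 611 (93.0%) also passed 20 CPM in both wild-type libraries. From 10 to 100 CPM it was 426 of 494 (86.2%), from 1 to 10 CPM 119 of 262 (45.4%), and under 1 CPM 92 of 297 (30.98%). Members with capless ends only were less persistent: in the lowest class 981 of 1202 (81.6%) passed 20 CPM in neither wild-type library, against 107 of 297 (36.0%) of the shared ones. Their median was 33.9 CPM of capless ends, not far above the minimum of 3.54 counts. Past 4-fold higher Hyli sense counts in treated than wild-type animals were 171 of 297 shared members (57.6%) of the lowest class and 86 of 657 (13.1%) of the highest, against 20.9% of the 4526 transcripts with 20 CPM in either. For capless ends these were 93 (31.3%) and 93 (14.2%), against 31.6% of 5699 transcripts. The share for capless ends in the lowest class was thus at the background, and that for Hyli sense above it. The latter was not particular to shared members. It was 244 of 359 (68.0%) for members of the lowest class with Hyli sense only. Of all members of that class with 20 CPM of Hyli sense in either kind of animal it was 415 of 685 (60.6%). Past 4-fold lower in treated animals were 43 shared members of the highest class for Hyli sense (6.54%, against 20.5%) and 128 for capless ends (19.5%, against 33.4%). Shared members passed 20 CPM in the treated libraries by definition, which favours the higher direction.

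The hywi knockdown was compared with wild-type siblings on mRNA, a measure the membership rule did not use. The 6 mRNA libraries held 22236877 to 27551244 counts. Of the 5505 members, 4769 passed the filter on low counts and 736 did not. Without pairing of the libraries, edgeR's quasi-likelihood test with Benjamini-Hochberg adjustment called 0 of them in either direction (0% of all 19683 transcripts tested). At an unadjusted p under 0.05 that test had 205 higher and 25 lower of the 4769 members tested. Of all 19683 transcripts it had 577 higher and 141 lower, so both leaned toward higher. DESeq2 called 0 members higher and 1 lower, t34367aep. With the replicate number as a block, edgeR called 81 members higher (1.70% of those tested) and 4 lower, against 1.17% of all tested transcripts higher and 0.0914% lower.

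By class, the blocked fit called 20 of 1751 tested members higher in the class under 1 CPM of Hywi antisense (1.14%), 28 of 946 from 1 to 10 CPM (2.96%), 15 of 976 from 10 to 100 CPM (1.54%) and 18 of 1096 over 100 CPM (1.64%). The lowest class was at the background of 1.17%, and the 2 highest were little above it. These counts moved with the pairs: without pair 3 the lowest class had 45 of 1756 higher (365 of 20129 over all tested), and without pair 2 the class from 10 to 100 CPM had 31 of 995 (357 of 19931). The median log2 difference of the fit without the block was -0.08, 0.12, 0.24 and 0.24 by class, against 0.02 over all tested transcripts and 0.00 over tested transcripts that were no members. In pairs 1, 2 and 3 the median was 0.17, 0.10 and 0.42 over 100 CPM, and -0.07, -0.03 and -0.15 under 1 CPM. From 1 to 10 CPM the pair medians were 0.02, 0.01 and 0.32, and the fitted median fell to 0.02 without sibling 3 and, with the block, to near 0 (0.0039) without pair 3. Pair 3 was the farthest from 0 in each class. Shared members over 100 CPM had a median of 0.24, those with capless ends only 0.27 (60 tested) and those with Hyli sense only 0.23, which were close to each other. The classes with a positive median also had the lowest mRNA, and the part of the mRNA level in this shift was not tested. Scaling by library totals with the block moved the median of the lowest class to 0.01 and that of all transcripts to 0.10, so that the lowest class stayed below the rest.

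**Figure D5:**
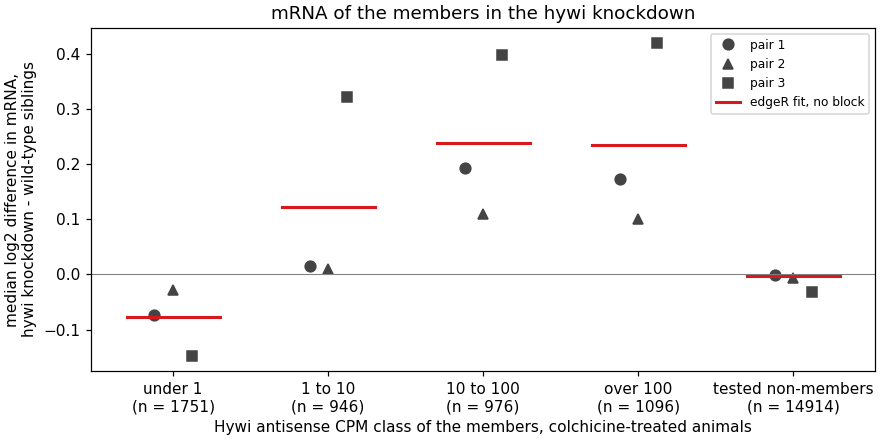
Symbols give the median log2 difference in mRNA between hywi knockdown and wild-type siblings in each of 3 same-numbered pairs, and red lines the median log2 fold change of the edgeR fit without the block, for members by Hywi antisense class and for tested transcripts that were no members. All 3 pairs lie above 0 in the upper 3 classes and below 0 in the lowest. Pair 3 reaches 0.42 in the highest class.

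Of the members called in the blocked fit, t32607aep had the highest log2 fold change. Its mRNA was 19.6, 2.61 and 1.56 CPM in wild-type siblings 1 to 3 and 107.6, 54.7 and 10.6 CPM in knockdown 1 to 3. Every knockdown library was above its numbered sibling, but the groups overlapped. The log2 fold change in the blocked edgeR fit was 3.06 (SE 0.29, adjusted p 3.1e-04), but the adjusted p without the block was 0.875, as for the other 3 transcripts named here. It had 39 capless and 822 Hyli sense counts in treated animals, and 2.89 CPM of Hywi antisense. The second, t19285aep, had 23.3, 1.96 and 2.22 CPM in siblings and 96.6, 39.9 and 8.32 CPM in the knockdown, which overlapped as well. In the blocked edgeR fit it rose by 2.60 on the log2 scale (SE 0.34, adjusted p 0.00194), while blocked DESeq2 gave it an adjusted p of 0.0501. With 4 capless counts it lay just inside the capless minimum, and it had 212 Hyli sense counts.

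The lowest of the 4 called lower was t34367aep, with 692.8, 657.2 and 637.6 CPM in siblings and 294.1, 293.6 and 403.1 CPM in the knockdown, groups that did not overlap. The blocked edgeR log2 fold change was -1.10 (SE 0.11, adjusted p 5.6e-04). This transcript had 398 Hyli sense counts and 1 capless count. The next, t27294aep, had 2.47, 5.70 and 7.14 CPM in siblings and 1.75, 3.54 and 4.32 CPM in the knockdown. Its groups overlapped. The blocked edgeR log2 fold change was -0.74 (SE 0.15, adjusted p 0.0420), and the adjusted p was 0.0368 without pair 1, 0.0442 without pair 2, 0.135 without pair 3 and 0.203 in blocked DESeq2. It had 217 Hyli sense and 0 capless counts. The remaining 2 called lower, named after their values were seen, were t35900aep (capless ends only) and t37529aep (shared).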

How the data were processed

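The authors mapped reads to the Hydra transcriptome and deposited raw counts per transcript, split by sense and antisense mapping for small RNA, per the file headers. Many were fractions, so all were treated as estimated counts, deposited by the authors without normalization. Trimmomatic 0.33 and Bowtie 1.1.2 (mRNA), cutadapt and Bowtie (other libraries) and RSEM 1.2.31 are named in the submitters' processing notes. A fraction arises where a read is divided among transcripts, so similar transcripts share counts. All 16 columns were matched to the 12 samples by name (0 left over).

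Members, classes and lists were chosen with earlier results of these data known. Each column was scaled to CPM by its own total. Ratios used a pseudocount of 1 CPM and a 4-fold rule, correlations were Spearman's, and shares of counts have 95% Wilson intervals. With 1 library of a kind no test was made. Transcripts were named by a rule: in each class the 2 highest in both libraries by the smaller CPM (at least 20 counts in both), the 2 highest and the 2 lowest ratios (at least 20 counts in the higher library), and for the knockdown the 2 highest and 2 lowest called log2 fold changes at a mean of at least 1 CPM.

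mRNA counts were rounded, filtered with filterByExpr, scaled by TMM and tested in all 6 libraries with edgeR 4.0.16 (R 4.3.3), two-sided, at an adjusted p of 0.05. DESeq2 1.42.0 was an alternative. The labels do not say what a replicate number marks, and p-values measure the spread between these libraries. Deviations from group means correlated by 0.62, 0.268 and 0.297 between same-numbered libraries, each over 0.1, and pairing by number rests on this alone. Pairings of unlike numbers reached 0.153 and 0.196. Scripts were tested on simulated data. Python 3.11.15, pandas 2.3.3, scipy 1.17.1 and matplotlib 3.10.9 were used.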

Additional observations from a re-analysis of the deposited data

Results flagged for a closer look

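Transcript t15818aep had a ratio of capless ends to Hyli sense counts that pointed in opposite directions in the 2 kinds of animal, past 4-fold in each. The log2 ratio was -3.88 in colchicine-treated animals (467.8 capless and 261108 Hyli sense counts) and 3.70 in wild-type animals (216.5 and 600). Each condition had 1 library of each kind, so this difference was not tested, and some values were fractions shared with other transcripts.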

How the results depend on the processing

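The rise of the share of capless transcripts with Hyli sense small RNA from the lowest to the highest Hywi antisense class kept its direction under each alternative run, and the values below are in the order of the classes. At a minimum of 10 CPM, 2745 members were shared and the shares were 26.7%, 43.0%, 78.8% and 92.3%. At 50 CPM there were 3149 members, 885 of them shared, with 16.9%, 20%, 59.4% and 83.7%. At 100 CPM there were 1938, 498 of them shared, the correlation was -0.12, and the upper 3 classes had 21.2%, 45.9% and 75.7%. With at least 10 capless counts, 1106 were shared, with 33.0%, 44.7%, 77.4% and 92.0%, and the median log2 ratio from 1 to 10 CPM turned to -0.14; the cause was not tested. Totals of both strands gave 11.6%, 20.4%, 59.4% and 85.9%. Whole-number values alone, required of Hywi antisense as well, left 102 members, 23 of them shared. Few transcripts with capless ends were left in a class, with 5 of 22 shared from 1 to 10 CPM (22.7%) and 5 of 5 over 100 CPM (100%). Classes set by wild-type Hywi antisense gave 37.1% from 1 to 10 and 62.6% from 10 to 100 CPM. The Spearman correlation was 0.28 over transcripts at 20 CPM in both libraries and 0.11 over those with at least 50 capless counts in both degradomes. Of the ratios of the 24 named transcripts, a pseudocount of 0.1 CPM moved 11 and one of 5 CPM moved 13, and none reversed.

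The knockdown calls depended on the replicate block, which gave 231 transcripts higher and 18 lower (81 and 4 members) against 0 and 0 without it. Unblocked DESeq2 called 1 higher and 1 lower (1 member, lower), and unblocked edgeR with RLE factors, without the filter or without any 1 library called 0 (the range is 0 to 0). With the block, chosen after seeing the data, DESeq2 gave 140 and 46 (51 and 8 members), RLE factors 247 and 37 (83 and 8) and library totals 123 and 2 (50 and 2). Leaving out pair 1, 2 or 3 gave 219, 357 and 365 higher and 16, 105 and 52 lower (76, 117 and 111 and 4, 35 and 17 members). The subtraction of the 5th percentile ratio and the minimum of 50 counts were also chosen after seeing the data. Depth limits the capless counts, with 20 CPM at 3.54 counts.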

Other observations

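The colchicine-treated libraries divided their counts among the Hywi antisense classes in a similar way. Of all capless counts, 19.2%, 9.78%, 27.6% and 43.5% lay on transcripts of the classes from lowest to highest, and of Hyli sense counts 13.9%, 8.07%, 27.8% and 50.2%. Wild-type counts were split by these same classes, set by Hywi antisense of treated animals. Of wild-type capless counts 47.4% lay in the lowest class and 27.1% in the highest, against 6.57% and 50.4% of Hyli sense counts. The shared members of the lowest class alone held 41.7% of wild-type capless counts. Capless counts were concentrated, with 42.3% of the wild-type and 27.97% of the treated ones on the 10 most abundant transcripts of each library. For Hyli sense counts these were 8.18% and 18.5%. A class share can thus rest on few transcripts, and the shares without them were not tested. Over members, Hyli sense counts of treated and wild-type animals had Spearman correlations of 0.60, 0.61, 0.61 and 0.69 by class, and capless ends 0.19, 0.05, 0.32 and 0.50. These correlations are across transcripts of the same libraries and are descriptions only.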
